A study of Mus musculus with 4 samples.

Results

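The T cell antigen receptor loci Tcra, Tcrd, Tcrb and Tcrg were examined for peaks of TCF1, a transcription factor with a high mobility group DNA-binding domain that thymocyte development depends on, in 3 populations of mouse thymocytes. Members were all peaks lying in 3 windows of the mm9 genome: chromosome 14 from 53000000 to 54900000 for Tcra and Tcrd, chromosome 6 from 40800000 to 41550000 for Tcrb, and chromosome 13 from 19250000 to 19470000 for Tcrg. The windows held 144 of the 143547 peaks of the 3 lists: 59 of 41720 in the Sox13hi list, 1 of 10871 in the Sox13lo list and 84 of 90956 in the DP list. Peaks entered by position alone, and each is counted below.

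Both γδ populations were γδ thymocytes sorted as positive for CD24, a marker of immature cells, from C57BL/6 mice with the genotype TCRbeta KO.Sox13 ECFP KI/+. These animals lack TCRβ, and 1 of their Sox13 alleles, which encode a further transcription factor of the same broad class, carries a knocked-in cyan reporter. Cells bright for the reporter are called Sox13hi, and dim or negative cells Sox13lo. The αβ lineage was represented by thymocytes carrying both CD4 and CD8 (double-positive, DP) from wild-type C57BL/6 mice. Chromatin of each population was immunoprecipitated with the same antibody against TCF1, and each population had 1 library, so there is no replicate error and no test between populations. An input library of γδ thymocytes of the same genotype, made without antibody, was not analysed here. The labels give no age, and no expression was measured, so the sorts could not be checked against marker genes. Read depth is unknown. Each list has its own score scale and lowest score, and a site that a list lacks may have scored under that limit. The γδ and DP cells differ in lineage and in genotype, and the contribution of each to any difference below cannot be told apart.

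Each receptor chain is assembled in thymocytes by recombination of variable (V), joining (J) and, for TCRβ and TCRδ, diversity (D) segments, which are then spliced to a constant (C) gene. TCRγ and TCRδ pair on γδ T cells, TCRβ and TCRα on αβ T cells, and recombination of Tcra, which removes the Tcrd segments nested inside it, takes place largely at the DP stage. TCF1 is known to bind the enhancer of Tcra. In the RefSeq gene table, which is on the other build GRCm38.p6 and serves here only for names and order, the Tcra record spans 119 V segments and 17 V pseudogenes and both constant genes of the locus, Trdc and then Trac, with Dad1 as the next protein-coding gene. Tcrd lies inside it, with 2 D segments, Trdc and, after Trdc, the V segment Trdv5. Tcrb holds 22 V segments, 13 V pseudogenes and 13 protein-coding genes that include trypsinogens such as Prss1, Prss2 and Try4, followed by its 2 D segments, Trbc1, Trbc2 and a last V segment, Trbv31. Tcrg holds 7 V segments and 4 constant genes in the order Trgc1, Trgc3, Trgc2 and Trgc4. Gene positions on mm9 were not used, so peaks are given by position and by distance along a window and are not assigned to a segment or enhancer. V families contain similar copies, and how reads that match several copies were treated is not given in the sources used here. Recombination also removes DNA between joined segments, so the copy number of these loci differs between cells, and its part in the results was not tested.

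Across the loci, called TCF1 peaks were frequent in Tcrb in the full Sox13hi list, near or below the genome-wide frequency elsewhere in Sox13hi and DP cells, and almost absent in Sox13lo cells. Relative density below is peaks per Mb in a window divided by peaks per Mb on all 19 autosomes of the same list, with an exact 95% Poisson interval of the count that covers counting error only and treats peaks as independent. In the Tcrb window the Sox13hi list held 32 peaks where its autosomal density corresponds to 12.2, a relative density of 2.63 (1.80 to 3.71). Among the best-scored 10871 peaks of the Sox13hi list, as many as the shortest list holds, 3 lay there and the value was 0.945 (0.195 to 2.76). The full DP list held 25 peaks there against 26.0, or 0.962 (0.623 to 1.42). The Sox13lo list held 0 against 3.15, a relative density of 0 (0 to 1.17), and the one-sided limit of 3 peaks that a count of 0 allows corresponds to 0.951. The γδ donors carry a targeted Tcrb locus, and neither its strain of origin nor the input coverage of this window was analysed here, so the part of either in the Sox13hi count was not tested.

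In the Tcra and Tcrd window no list was denser than its autosomes. The Sox13hi list held 23 peaks against 30.9 at its autosomal density, a relative density of 0.745 (0.472 to 1.12). The DP list held 54 against 65.8, or 0.820 (0.616 to 1.07). The Sox13lo list held 1 against 7.99, or 0.125 (0.00317 to 0.698). In the Tcrg window, which is short, counts were too low to separate any list from its autosomes: 4 Sox13hi peaks against 3.57, a relative density of 1.12 (0.305 to 2.87), and 5 DP peaks against 7.62, or 0.656 (0.213 to 1.53). The 0 Sox13lo peaks against 0.925 gave an interval of 0 to 3.99, with a one-sided limit of 3.24.

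**Figure D1:**
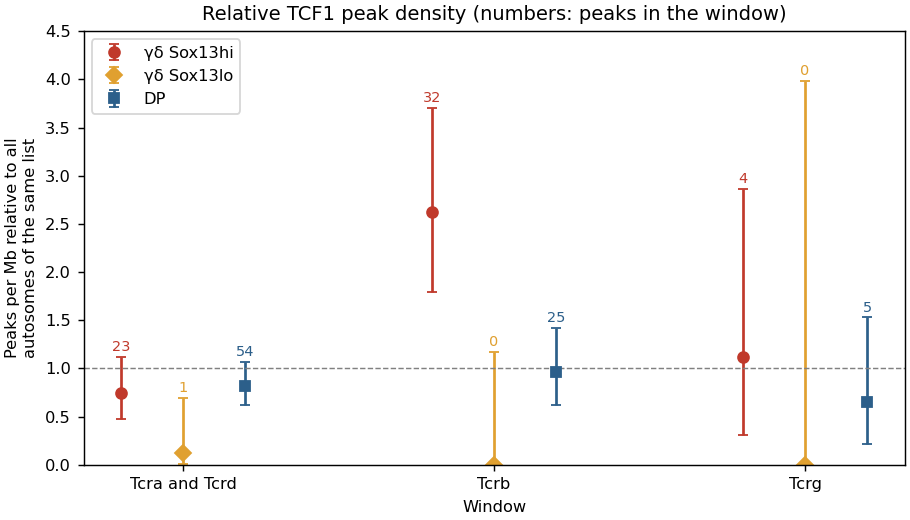
Relative TCF1 peak density (y axis, peaks per Mb over that of all autosomes of the same list) in the 3 windows (x axis), with exact two-sided 95% Poisson intervals of the count, also for counts of 0, and the number of peaks above each. The Sox13hi value of 2.63 in the Tcrb window is the one whose interval lies above 1, and the Sox13lo values are at or near 0.

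Peaks cluster along chromosomes, so each window was also set beside non-overlapping autosomal bins of its own length. Of 3209 bins of 750 kb, 0.0935% (3 bins) held at least 32 Sox13hi peaks, against a median of 12 per bin. For the DP list 41.8% of these bins held at most 25 peaks, so its count in Tcrb was ordinary. The Sox13hi count also exceeded the DP count in the Tcrb window, by 32 to 25. Sox13hi peaks outnumbered DP peaks in 1.75% of bins, and over all bins there were 0.469 Sox13hi peaks for each DP peak. The lack of Sox13lo peaks in Tcrb was common: 23.5% of bins had none. In the longer bins matching Tcra and Tcrd, 16.9% held at most 23 Sox13hi peaks, 8.72% at most 54 DP peaks and 14.6% at most 1 Sox13lo peak. In bins matching Tcrg, 48.7% held at least 4 Sox13hi peaks, 22.6% at most 5 DP peaks and 54.3% no Sox13lo peak. Each of the 3 Sox13lo counts was thus matched by 14.6% of bins or more.

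On either side of the Tcrb window the Sox13hi list was less dense. The 750 kb before the Tcrb window held 5 Sox13hi peaks, a relative density of 0.410 (0.133 to 0.958), and the 750 kb after it 14, or 1.15 (0.628 to 1.93). The DP list held 14 and 21 peaks in the same flanks. Around Tcra and Tcrd the Sox13lo list was uneven, with 6 peaks in the 1.9 Mb before the window, 1 inside and 24 in the 1.9 Mb after, the last a relative density of 3.0 (1.93 to 4.47). The Sox13hi list held 22, 23 and 28 peaks over the same stretches and the DP list 57, 54 and 71.

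The Tcra and Tcrd window contained the best-scored antigen receptor peaks of every list. Scores are the authors' own values, and ranks count from 1 for the highest score of a list, with ties at their mean rank. In DP cells the best peak, at chr14:54762501-54763050, had a score of 196 and rank 309 of 90956, and with 550 bp it was the widest peak of the windows. The next, at chr14:54854551-54854900, had a score of 117 and rank 1192.5. These peaks lay 91.5 kb apart near the far end of the window, the end that borders the DNA after it. Neither overlapped a γδ peak: the nearest Sox13hi peak lay 14.2 kb from the first and 78.5 kb from the second, and the nearest Sox13lo peaks 287 kb and 196 kb away.

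The remaining well-scored DP peaks of this window lay further inside. A group of 4 within 16.1 kb, between 54252201 and 54268250, included the third and the fifth best of the window, chr14:54259151-54259550 with a score of 72.8 (rank 4116.5) and chr14:54267801-54268250 with 47.4 (rank 13840.5). The fourth best, chr14:53742351-53742650, had a score of 57.4 (rank 7862) and sat in another group of 4 within 13.8 kb. Most of the other DP peaks here were modest: 18 of the 54 scored above the median of their list, and the median rank percentile was 61.3, where 0 is the best and 100 the lowest. DP peaks were found along the whole window, with 11, 9, 9, 11 and 14 in successive stretches of 380 kb.

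In γδ cells 1 site of the Tcra and Tcrd window was called in both populations. It began at 53342551 on chromosome 14 in each list and ended at 53342800 in Sox13hi and 53342850 in Sox13lo cells. In Sox13hi cells it had a score of 34.7 and rank 1675 of 41720, the best of that list in any of the 3 windows. In Sox13lo cells it had a score of 25.6 and rank 7193 of 10871, below that list's median, and it was the only Sox13lo peak at any of the loci. The nearest DP peak lay 49.1 kb away. The site stood 343 kb from the start of the window.

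The other Sox13hi peaks of this window were weaker and unevenly spread. The best were chr14:54449801-54450000 with a score of 17.1 (rank 5394), chr14:54461101-54461250 with 12.1 (rank 9938), chr14:54118501-54118650 with 11.8 (rank 10473) and chr14:54547051-54547200 with 10.5 (rank 12790). Successive stretches of 380 kb held 5, 2, 1, 11 and 4 Sox13hi peaks. A stretch of 460 kb, from 53658901 to 54118500, held no Sox13hi peak and 11 DP peaks. On the autosomes 76 of 40137 gaps between neighbouring Sox13hi peaks, or 0.189%, were at least as long. The longest DP gap of the window, 174.85 kb from 53806101 to 53980950, was similarly uncommon for its list. Of 85650 autosomal DP gaps, 234, or 0.273%, were at least as long. Each gap was picked as the longest of its list in the window, which these shares do not allow for. Of the 23 Sox13hi peaks, 8 scored above the median of their list and 15 were 100 bp wide, the narrowest width in the files.

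The Sox13lo list, the shortest, had a longer gap in kb, though a more common one for its list. From the end of its single peak to 55050500 on chromosome 14, past the end of the window, 1708 kb held no Sox13lo peak. The part of that gap inside the window held 19 Sox13hi and 43 DP peaks, among them the best DP peaks above. On the autosomes the distance between neighbouring Sox13lo peaks had a median of 85.6 kb and a maximum of 9531 kb, and 193 of 10375 such gaps, or 1.86%, were at least as long.

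**Figure D2:**
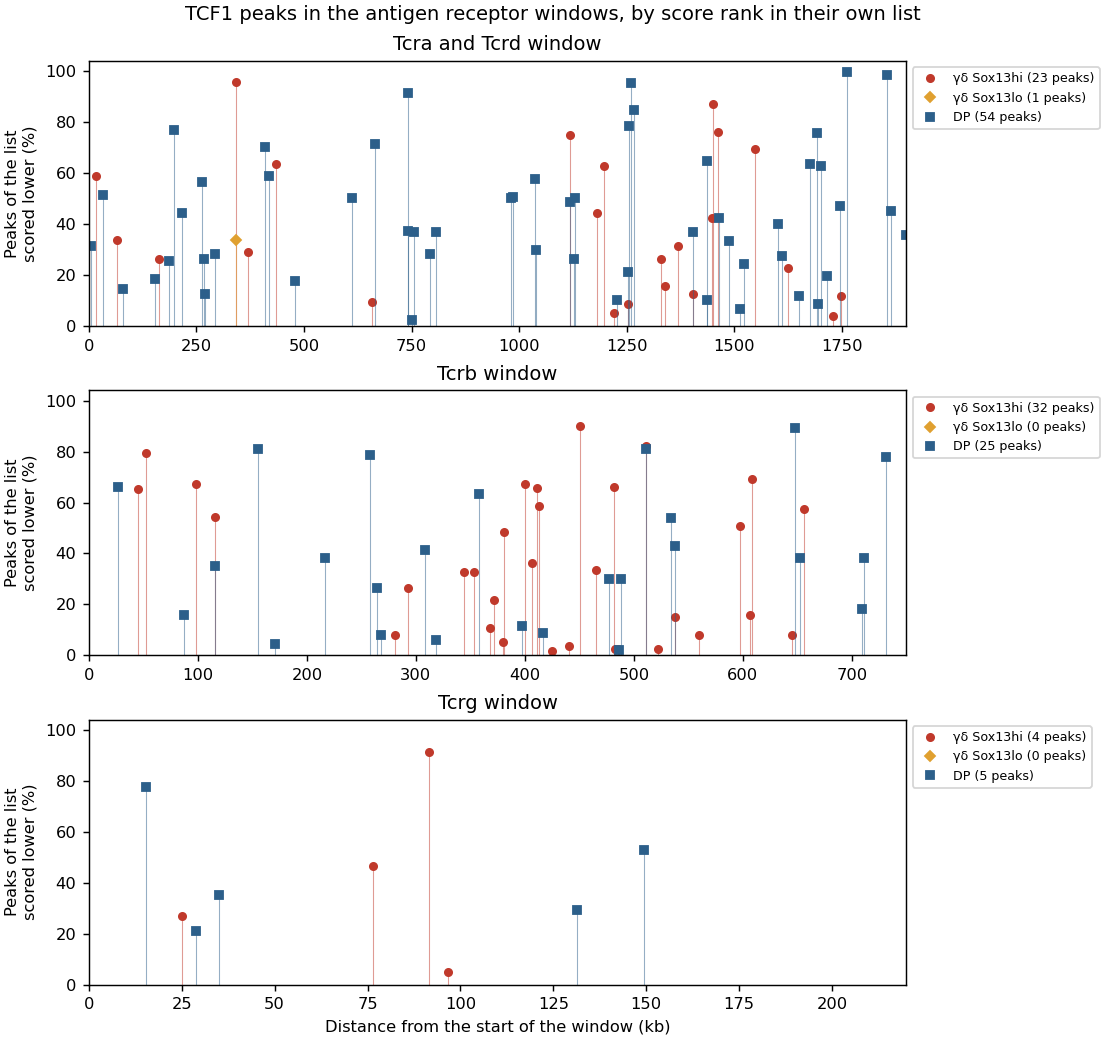
Peaks of the 3 lists by distance from the start of each window (x axis, kb) and by the share of their own list that scored lower (y axis, %; ties at their mean rank). The best DP peaks of the Tcra and Tcrd window stand at its right end, Sox13hi peaks crowd the middle of the Tcrb window, and the single Sox13lo peak coincides with the best Sox13hi peak.

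Tcrb, whose product is missing in the γδ donors, carried peaks in Sox13hi cells over most of its length. Successive stretches of 150 kb held 4, 2, 12, 10 and 4 Sox13hi peaks, against 3, 6, 5, 6 and 5 DP peaks. Between 41100000 and 41400000, the densest part, there were thus 22 Sox13hi and 11 DP peaks. The median distance between neighbouring Sox13hi peaks was 11.6 kb in this window and 38.6 kb on the autosomes. For DP the corresponding values were 25.6 and 18.8 kb.

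**Figure D3:**
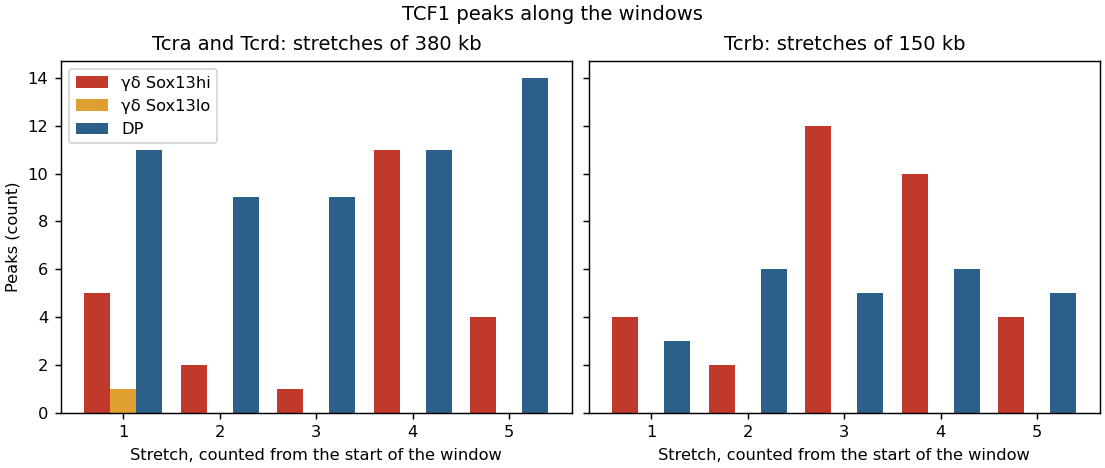
Number of peaks (y axis) in 5 successive stretches (x axis) of the Tcra and Tcrd window (380 kb each) and the Tcrb window (150 kb each). Sox13hi peaks number 12 and 10 in stretches 3 and 4 of Tcrb, above the 5 and 6 of DP cells, and 1 in stretch 3 of Tcra and Tcrd, below the 9 of DP cells.

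The best Sox13hi peak of Tcrb was chr6:41250801-41251000, with a score of 20.1 and rank 4226, and the nearest DP peak lay 25.65 kb away. The second, chr6:41310801-41311000, had a score of 14.3 (rank 7424.5) and overlapped the DP peak at chr6:41310901-41311350, with a score of 44.1 (rank 17139 of 90956). This was the only region in the 3 windows shared by γδ and DP cells. Next came chr6:40852151-40852250 with a score of 13.2, chr6:41408301-41408500 with 10.5, chr6:40898601-40898750 and chr6:41200151-41200350 with 10.1 each, chr6:41281651-41281800 with 9.91 and chr6:41211051-41211250 with 9.87. The 4 that followed, starting at 40844901, 41213001, 41456451 and 40915251, scored between 8.35 and 9.75. The other 20 Sox13hi peaks scored from 4.19 to 7.98.

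The best DP peaks of Tcrb stood elsewhere for the most part. The highest, chr6:41447301-41447650, had a score of 53.4 (rank 9687.5) and lay 1.80 kb from a Sox13hi peak that scored 4.61. The shared peak and chr6:40954901-40955250 tied at a score of 44.1, chr6:41057651-41057950 had 42.1 and chr6:41531051-41531300 had 41.4. The last of these and 2 weaker DP peaks, at 41509351 and 41511201, fell in a stretch of 127 kb without a Sox13hi peak, from 41456551 to 41583200 at the far end of the window and beyond. Another such stretch, of 165 kb from 40915401 to 41080750, held 7 DP peaks. The share of autosomal Sox13hi gaps as long as either stretch was not counted. The labels do not give the extent of the deletion that removes TCRβ. A lack of γδ peaks through missing DNA, missing TCF1 or scores under the limit of the list therefore cannot be told apart. The 32 Sox13hi peaks lay in all 5 stretches, from 40844901 to 41456550.

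The Sox13hi excess at Tcrb was present in the better-scored 50% of the list, with 13 peaks against 6.11 and a relative density of 2.13 (1.13 to 3.64), and was not seen in the best-scored 25%. When the list was divided into 4 equal parts by score, the best 25% gave 3 Tcrb peaks against 3.04 at their autosomal density, a relative density of 0.985 (0.203 to 2.88), an interval that also includes the value of the full list. The following parts gave 10, 6 and 13 peaks, or 3.26 (1.56 to 6.00), 1.97 (0.723 to 4.29) and 4.30 (2.29 to 7.35). Peaks 100 bp wide had a relative density of 3.32 (2.06 to 5.08) there and wider ones, with 11 peaks against 5.86, 1.88 (0.937 to 3.36), so the intervals of the width classes overlapped. Of the 32 peaks, 13 scored above the median of the list and 21 were 100 bp wide, or 65.6%, against 51.9% of the whole list. The DP list showed no such excess in any part, with 5, 3, 9 and 8 Tcrb peaks and relative densities from 0.463 to 1.39. No Tcrb peak was among the best-scored 10% of its list in any population, the closest being at rank percentiles of 10.1 in the Sox13hi and 10.7 in the DP list.

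**Figure D4:**
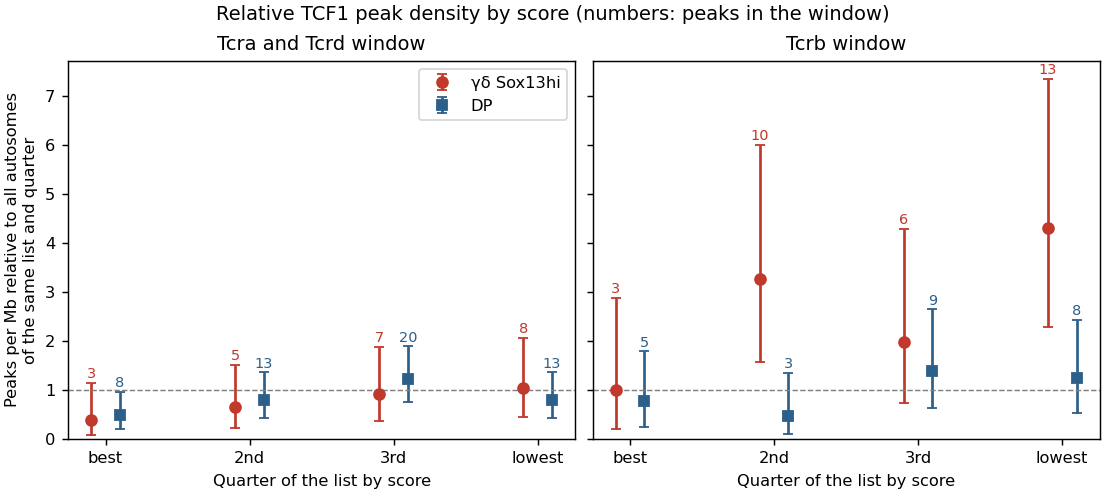
Relative TCF1 peak density (y axis, over all autosomes of the same list and score class) in the Tcra and Tcrd window and in the Tcrb window, for 4 equal parts of the Sox13hi and DP lists from the best to the lowest scores (x axis), with exact 95% Poisson intervals and peak counts. In Tcrb the Sox13hi value is 0.985 in the best-scored part and 4.30 in the lowest, while DP values stay between 0.463 and 1.39.

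Tcrg, the locus of the γ chain, held 4 Sox13hi peaks against 3.57 at the autosomal density of that list, and 0 Sox13lo peaks against 0.925. Neither count could be separated from its autosomes. Of the Sox13hi peaks, chr13:19341301-19341550 stood out with a score of 22.0 and rank 3626, within the best-scored 10% of the list. The others were chr13:19326551-19326650 with a score of 7.48, chr13:19274901-19275000 with 5.63 and chr13:19346651-19346750 with 4.44, each 100 bp wide. The best of them and its nearest Sox13hi neighbour were 5.10 kb apart. No Sox13lo peak lay between 19040501 and 20087600, a stretch of 1047 kb that contains the whole window. Of autosomal bins of the window's own length, 54.3% also held none, and the share of Sox13lo gaps as long as this stretch was not counted.

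DP cells had 5 Tcrg peaks, none at a Sox13hi site. The best was chr13:19265301-19265550 with a score of 41.4 (rank 20221), followed by chr13:19399351-19399550 with 26.7, chr13:19284951-19285200 with 18.7, chr13:19381401-19381600 with 16.5 and chr13:19278851-19279050 with 13.4. The best Sox13hi peak lay in a stretch of 96.2 kb between DP peaks, 39.9 kb from the nearest. The smallest distance between the lists was 3.85 kb.

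The populations rarely shared a site at the antigen receptor loci. When peaks that overlapped were joined, the windows held 142 regions, with 2 found in a pair of lists and 0 in all 3. A Sox13lo peak was met by 1 of the 59 Sox13hi peaks, a share of 1.69% (95% Wilson interval 0.300 to 9.0), against 16.9% of the whole list. Also 1 of 59 overlapped a DP peak, against 14.1% of the whole list. Of the 84 DP peaks, 1 overlapped a Sox13hi peak, or 1.19% (0.210 to 6.44), an interval that includes the 6.24% of the whole list. A Sox13lo peak was met by 0 of the 84, or 0% (0 to 4.37, with a one-sided limit of 3 counts at 3.57%), against 6.04%. The single Sox13lo peak overlapped the Sox13hi list and not the DP list, where 59.8% and 50% of the whole list did. Both directions of a pair count the same sites. The windows held only 1 Sox13lo peak, which capped the Sox13hi and DP shares with that list beforehand. Those shares therefore give no measure of sharing apart from the low Sox13lo count. The whole-list shares were not matched to the scores of the window peaks.

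Near misses were less frequent than in the whole list when counted from Sox13hi peaks, and closer to the whole list when counted from DP peaks. Of the 59 Sox13hi peaks, 6 lay less than 1 kb from a DP peak, or 10.2%, against 21.8% of the whole list. Besides the shared Tcrb region, these were 2 that touched a DP peak end to end, ending at 54252200 in Tcra and Tcrd and at 40915400 in Tcrb, 2 that lay 0.1 kb away, starting at 54403501 and 41337501, and the peak at 54118501, 0.4 kb away. Of the 84 DP peaks, 6 lay less than 1 kb from a Sox13hi peak, or 7.14%, against 9.64% of the whole list. Within 10 kb there were 22 Sox13hi peaks, or 37.3%, against 59.0% of the list, and 25 DP peaks with a Sox13hi neighbour, or 29.8%, against 32.3%. By window this last share was 18.5% in Tcra and Tcrd, 48.0% in Tcrb and 60.0% of only 5 peaks in Tcrg.

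The low sharing stood beside low scores. Sox13hi peaks of the windows had a median score of 6.00, against 7.90 in the whole list, and 22 of 59 lay above that median. DP peaks had a median of 19.8, against 25.4, with 28 of 84 above it. The median rank percentiles were 67.4 for Sox13hi and 62.1 for DP. Within the best-scored 10% of their lists stood 2 of the 59 Sox13hi peaks, 4 of the 84 DP peaks and 0 Sox13lo peaks. When each list was limited to its best-scored 10871 peaks, the windows held 8 Sox13hi, 1 Sox13lo and 5 DP peaks, where the autosomal densities correspond to 12.1 in each list. At that length the Tcrb window held 3, 0 and 1 peaks.

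Peaks next to the window bounds were as follows. In the Sox13hi list the nearest outside peaks were 174.5 and 33.4 kb outside the Tcra and Tcrd window, 147.5 and 33.2 kb outside Tcrb, and 216 and 138 kb outside Tcrg, with scores from 4.52 to 10.8. In the DP list a peak with a score of 52.1 lay 29.2 kb before the Tcra and Tcrd window, one with 42.1 lay 41.9 kb after it, and one with 38.1 lay 35.6 kb after Tcrg. The DP peaks just inside these bounds scored 17.4, 18.9 and 26.7. At the remaining bounds the inside DP peak scored higher. The scores outside and inside were 31.2 and 34.1 at the Tcrb start, 13.2 and 41.4 at the Tcrb end, and 12.7 and 41.4 at the Tcrg start. In the Sox13lo list a peak at chr6:41555251-41555450, with a score of 11.5, lay 5.25 kb beyond the Tcrb window. That peak is not counted among the members.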

How the data were processed

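TCF1 immunoprecipitations of 3 thymocyte populations were compared, 1 library each. The authors deposited 1 peak list per library with 6 columns and no header, which give chromosome, start, end, name, score and strand. The submitters' processing notes name mm9 as the build, and positions were converted to count from 1 with both ends included. The score in the deposited lists is the authors' value, on a scale of its own in each list. Which aligner, peak caller and threshold were applied, and whether the input was used, is not given in the sources used here. Per the labels' protocols, fragments of 300 to 500 bp were amplified for 17 cycles. With 1 library for each population, intervals cover counting error only.

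A peak was a member if it met a window by at least 1 bp. Overlap needed 1 bp and was checked with bedtools 2.31.1. Chromosome lengths came from GenomeInfoDb 1.38.1. Python 3.11.15, numpy 2.4.6, pandas 2.3.3, scipy 1.17.1 and matplotlib 3.10.9 were used, and the code was tested on simulated data. Autosomal bins ran between the first and last peak of a chromosome. Named were, per window, the 5 peaks with the highest scores in a list, the 12 best-scored γδ peaks of Tcrb, shared regions and the peaks beside each bound. Windows, tests and descriptions were chosen with earlier results of these data known, and bins, score classes, width classes and flanks after the values of the windows were seen. Sequences of the peaks were not analysed here, since no mm9 sequence was used.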

Additional observations from a re-analysis of the deposited data

How the results depend on the processing

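Of 45 alternative values of the 9 relative densities, 39 stayed within the counting interval, including all with peaks under 1 kb apart joined, with windows widened by 100 kb and with the rest of the chromosome as reference. Some of the 39 could not have moved. Equal length leaves the Sox13lo list as it was, since it is the shortest. Its counts of 0 in Tcrb and Tcrg can change only in the widened windows. The better-scored 50% of each list moved Sox13lo in Tcra and Tcrd to 0 and DP in Tcrb to 0.614. Lists of equal length moved DP in Tcra and Tcrd to 0.5002, DP in Tcrb to 0.317, DP in Tcrg to 0 and Sox13hi in Tcrb to 0.945, with 4, 1, 0 and 3 peaks left. Of 24 alternative overlap shares, 19 stayed, among them shares of 0% that could not rise under the reciprocal rule or at equal length. A reciprocal overlap of 50% took Sox13hi in DP and DP in Sox13hi to 0%, since the shared region no longer counted, and equal length gave 0% for both and 12.5% (1 of 8 peaks) for Sox13hi in Sox13lo. Equal length leaves fewer peaks by construction. No paired analysis was possible because there was 1 library for each population. Without read depths, no detection limit could be given for the short Sox13lo list.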

Other observations

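The autosomal bins of 750 kb with at least as many Sox13hi peaks as the Tcrb window were of different kinds, given here as values. The fullest, on chromosome 1 from 47290851 to 48040850, held 43 Sox13hi, 0 Sox13lo and 21 DP peaks, and like the Tcrb window it held more Sox13hi than DP peaks and no Sox13lo peak. The other 2, neighbours on chromosome 10 from 79543651 to 81043650, held 34 and 33 Sox13hi, 41 and 40 Sox13lo, and 45 and 42 DP peaks. A Sox13hi to DP count at least as high as the 1.28 of the Tcrb window was found in 12 of 3209 bins, or 0.374%. These bins were looked up after the Tcrb count had been seen.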
